A study of Mus musculus with 4 samples.

Results

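The Ly49 receptors of mouse blood cells are described here through 10 genes, Klra1 to Klra10, taken by symbol from 32285 genes in the files and read in natural killer (NK) cells, T cells and monocytes. Mononuclear cells were isolated from blood of 2 inbred mouse strains, labelled BL/6 and SM/J, at 12 and 20 months of age, and sequenced as droplet 3' libraries in which cells carried multiplexing tags. Both ages of a strain were tagged and run together as 1 10x sample, so an age comparison lies within a run, while strain and run cannot be told apart. The deposited matrices split the cells into 4 libraries by strain and age, with 3 tags in each. The labels give no treatment, sex, substrain or number of mice, and no source says what a tag marks. Cells that share a tag are called an aliquot and are not taken as replicates. Where aliquots of libraries do not overlap below, the share of all genes that separate likewise is not given. The libraries are a single one at each strain and age, so every difference below is between libraries, with intervals for counting error and the range over the aliquots, and without a test.

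Ly49 proteins are lectin-like receptors on the surface of NK cells and some T cells that bind MHC class I molecules on other cells. Inhibitory members carry a motif that recruits phosphatases and hold the cell back when the ligand is present, while activating members signal through the adaptor DAP12, encoded by Tyrobp. Each NK cell switches on some members and not others, so a blood sample holds a mosaic of cells. The gene cluster differs between mouse strains in the number and kind of its genes, and the mm10 reference carries the C57BL/6J version. Reads of an SM/J gene are therefore counted only as far as they align to a C57BL/6J copy, and the part of this in the strain ratios was not tested.

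All 10 genes lie on the minus strand of chromosome 6 (mm10), 9 of them between 129898996 and 130386874 and Klra2 apart from them at chr6:131219223-131247362. The upstream stretches of Klra4, Klra8 and Klra2 are shown because Klra4 and Klra8 are the activating pair whose balance differed most between libraries, and Klra2 is the member read in monocytes and hardly in NK cells. Each is the 120 bases before the RefSeq start (GRCm38.p6, minus strand), at chr6:130067272-130067391 for Klra4, chr6:130129899-130130018 for Klra8 and chr6:131247363-131247482 for Klra2. Capitals mark every word of 10 or more bases that all 3 hold.
Klra4: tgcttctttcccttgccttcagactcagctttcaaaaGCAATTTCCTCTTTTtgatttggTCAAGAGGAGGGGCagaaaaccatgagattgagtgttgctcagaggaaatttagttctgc
Klra8: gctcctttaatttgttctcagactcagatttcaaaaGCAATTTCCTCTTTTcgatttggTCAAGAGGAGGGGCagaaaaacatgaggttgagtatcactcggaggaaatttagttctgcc
Klra2: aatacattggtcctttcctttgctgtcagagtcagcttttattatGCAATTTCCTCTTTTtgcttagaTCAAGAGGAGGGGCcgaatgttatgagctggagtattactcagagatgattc
The Klra4 and Klra8 stretches were 86.0% identical by alignment, and that of Klra2 was 68.8% identical to Klra4 and 65.9% to Klra8. The word TCAAGAGGAGGGGC was held by 3 of 32851 promoter windows of the same length, 0.00913%, and those 3 were the ones it was taken from. The word GCAATTTCCTCTTTT was held by 8 windows, 0.0244%, and by 5 members, with Klra3 and Klra9 beside the 3 shown. It contains, on the other strand, GAGGAA, a core bound by ETS factors such as PU.1, which 8 of 10 members and 11.6% of all windows held on either strand. The marked words were chosen as those that all 3 stretches hold, so their sharing is fixed by that choice and describes the C57BL/6J reference only.

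How well reads can be told apart differs between members. Klra3 and Klra9, both inhibitory, had transcripts 93.2% identical over their length and 98.2% identical over the last 500 bases, the end that a 3' library reads. Of all 50-base windows in that end, 42.4% of those of Klra3, 44.8% of Klra9 and 40.6% of Klra10 also occurred in another gene, as did 27.5% of those of Klra7, all of them in the pseudogene Klra13-ps. For windows of 90 bases the shares fell to 8.52% for Klra3, 14.1% for Klra9, 15.6% for Klra10 and 10.2% for Klra7, and they were 0% for Klra1, Klra2, Klra4, Klra5, Klra6 and Klra8. The read length is not given in the sources used here. Klra8 shared 13.1% of its 50-base windows with Klra3, Klra9, Klra10 and pseudogenes, Klra1 5.77% and Klra4 4.66% with each other, and Klra6 3.10% with pseudogenes. Values of all these members are uncertain for this reason, by an amount that the shares do not measure and that was not tested. Klra4 and Klra8, 70.7% identical over their length, shared no such window with each other.

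The NK gate held 112 cells in BL/6 at 12 months, 78 in BL/6 at 20 months, 67 in SM/J at 12 months and 60 in SM/J at 20 months, 2.2% to 3.3% of kept cells, with median UMIs per cell of 4775.5, 4006, 2663 and 3276. Levels are in CPM, the UMIs of a gene divided by all UMIs of its cell class and library and multiplied by 1000000. All 10 NK markers were detected in every library, summing to 11618 to 15021 CPM, of which Ncr1 and Klre1 were used by the gate and had to be present. Between 8 and 9 of the gated cells in each library held no UMI of 5 further NK genes. Monocyte genes summed to 2706 CPM in the gated NK cells of BL/6 at 20 months against 323 to 703 in the other libraries, with all 4 detected, and B cell genes to 2101 in SM/J at 20 months against 108 to 548, also with all 4 detected. Of 8 T cell markers, 5 to 8 were detected, at 253 to 616 CPM, and Cd4 was at 0 in 3 of 4 libraries. In BL/6 at 12 months Cd3d was seen in 12 of 112 gated cells and Trac in 13, against at most 5 in any other library. Cd8b1 had 22 UMIs there, against 2, 0 and 0, while Trbc1 and Cd8a were highest in BL/6 at 20 months. Markers of type 1 innate lymphoid cells summed to 121, 113, 53.9 and 27.4 CPM in the order above. The part of all these genes in the results was not tested. Values of cells with more NK than B cell or monocyte UMIs stand in the closing section. No cell barcode was shared by both libraries of 1 strain, and 8 were shared between strains.

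The library labelled BL/6 at 20 months stood apart from its strain at these genes. Among the 7 members with 40 or more NK UMIs, the median absolute log2 difference from BL/6 at 12 months was 1.44, with 5 of 7 past 2-fold, and that from SM/J at 12 months was 0.26, with 0 of 7 past 2-fold. Over all genes with 20 or more UMIs in the pair the medians were 0.32 and 0.38. From SM/J at 20 months the median was 0.33, with 3 of 7 past 2-fold, and over all genes 0.44. By the median, its Ly49 values lay nearer to either SM/J library than to BL/6 at 12 months. Genes elsewhere in the genome mostly did not: of 96 genes outside the surrounding 3 Mb that differed 8-fold or more between the 12-month libraries, in whichever of NK cells, T cells, monocytes or B cells they had most UMIs, 9 were nearer to SM/J in this library (median position 0.06 on a scale where 0 is BL/6 and 1 is SM/J at 12 months). At 4-fold or more these were 50 of 275, with a median of 0.14. Klra3 and Klra8, the members in that wider set, lay at 0.92 and 0.88. All of these positions share the BL/6 12-month library that chose the genes and are a description. Age and any other difference between the mice of the BL/6 libraries cannot be told apart, and this holds for every comparison below of BL/6 over its ages and of the strains at 20 months. SM/J over its ages and the strains at 12 months do not use this library.

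As a sum, Ly49 levels stood highest in NK cells. The 10 genes together held 2692 CPM in NK cells of BL/6 at 12 months, 2245 in BL/6 at 20 months, 2265 in SM/J at 12 months and 1458 in SM/J at 20 months. In B cells, which should lack them, they held 0.957 to 4.69. NK levels were 574-fold to 1584-fold above B cells and 17.8-fold to 52.1-fold above T cells of the same library. With each cell thinned to 1000 UMIs, 72.3%, 75.3%, 75.4% and 70.0% of NK cells had a Ly49 UMI in the same order, and 0.0657% to 0.689% of B cells did. Without thinning the shares were 81.2%, 88.5%, 80.6% and 78.3% in NK cells and 0.521% to 1.59% in B cells, whose median depth was 3497 to 9668 UMIs. The shares of NK cells lay close together in all 4 libraries, with overlapping intervals.

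The summed level was lower in SM/J at 20 months than in the other libraries. At 20 over 12 months the log2 ratio was -0.64 in SM/J, and that of SM/J over BL/6 was -0.25 at 12 months and -0.62 at 20 months. In BL/6 the 20 over 12 month ratio was -0.26. The BL/6 aliquots spanned 2633 to 2783 CPM at 12 months and 2021 to 2421 at 20 months. Those of SM/J spanned 1820 to 2607 and 1177 to 1675. The age groups did not overlap in either strain. In SM/J at 20 months a single gated cell without a Ly49 UMI held 39310 of the 327937 UMIs of the class. The SM/J ratio ranged from -0.84 to -0.44 when single aliquots were left out. It was -0.20, and that of the strains at 20 months -0.15, among cells with more UMIs of other NK genes than of B cell or monocyte genes. Thinned cells held a mean of 1.49, 1.57, 1.58 and 1.33 members in the order above, and at most 5.

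**Figure D1:**
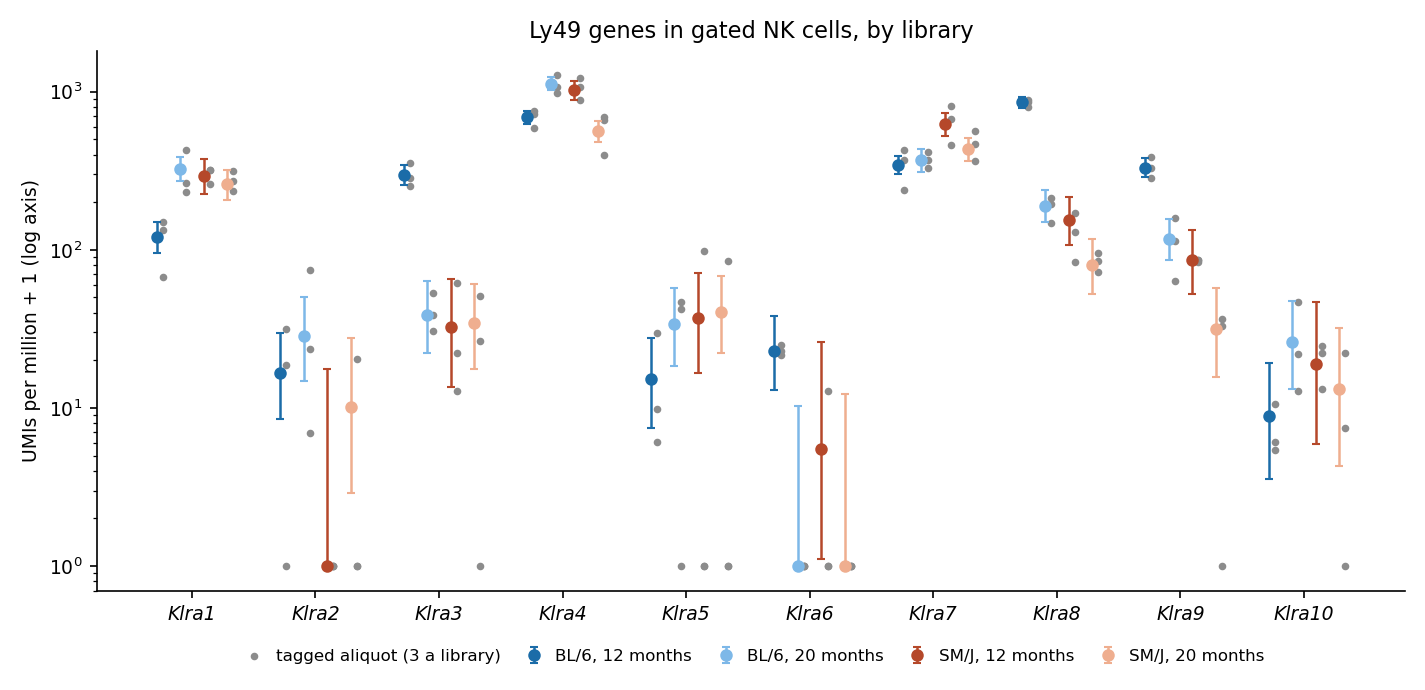
CPM + 1 (log axis) of the 10 Ly49 genes in gated NK cells of the 4 libraries. Coloured points are libraries with exact Poisson 95% intervals and grey points the 3 tagged aliquots of each. For Klra3, Klra8 and Klra9, BL/6 at 12 months lies above the other 3 libraries, and for Klra1 below them.

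The balance of the activating receptors differed between libraries. Klra8 encodes Ly49H, the activating receptor that recognises the m157 protein of mouse cytomegalovirus. It held 857 CPM in NK cells of BL/6 at 12 months, 189 in BL/6 at 20 months, 153 in SM/J at 12 months and 79.3 in SM/J at 20 months. The aliquots of BL/6 at 12 months, 798 to 891, lay above every aliquot of the other libraries, 71.3 to 212. Its log2 ratio was -2.17 (-2.55 to -1.83) for BL/6 over its ages and -2.48 (-3.03 to -1.99) for SM/J over BL/6 at 12 months. SM/J over its ages gave -0.94 (-1.74 to -0.17), a smaller difference on 34 and 26 UMIs, and -0.23 among cells with more NK than B cell or monocyte UMIs.

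Klra4 encodes Ly49D, an activating receptor that pairs with DAP12. It was the most abundant member by UMIs in all libraries except BL/6 at 12 months, where Klra8 was. Its level was 687 CPM in BL/6 at 12 months, 1124 in BL/6 at 20 months, 1020 in SM/J at 12 months and 561 in SM/J at 20 months. The aliquots of BL/6 at 12 months, 591 to 757, lay below those of BL/6 at 20 months, 977 to 1269, while those of SM/J at 20 months, 399 to 687, lay below SM/J at 12 months, 886 to 1218. The log2 ratio of 20 over 12 months was 0.71 (0.52 to 0.90) for BL/6 and -0.86 (-1.15 to -0.58) for SM/J. Neither reached 2-fold, the SM/J ratio was -0.42 among cells with more NK than B cell or monocyte UMIs, and the difference between the strains was not tested. For SM/J over BL/6 it was 0.57 at 12 months and -1.0 at 20 months, the second of which rests on the BL/6 20-month library and was -0.52 in those stricter cells. At 20 months Tyrobp held 2149 CPM in BL/6 and 683 in SM/J (log2 ratio -1.65, -1.87 to -1.44). At 12 months it held 1941 CPM in BL/6 and 1285 in SM/J (-0.59). Monocytes also express this gene, and the gated NK cells of BL/6 at 20 months held the most monocyte UMIs. The part of this in the Tyrobp ratios was not tested.

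Within single NK cells the difference in balance was visible without any scaling. There were 125 Klra8 UMIs for every 100 of Klra4 in BL/6 at 12 months, and 16.8, 15.0 and 14.1 in BL/6 at 20 months, SM/J at 12 months and SM/J at 20 months. Of cells with Klra8, 35 of 58 held more Klra8 than Klra4 in BL/6 at 12 months, against 0 of 27, 2 of 15 and 1 of 10. Cells with Klra8 and no Klra4 numbered 14, 0, 1 and 0. Cells with 5 or more Klra8 UMIs numbered 44, 2, 1 and 1. The low Klra8 counts of the other 3 libraries thus lay almost wholly in cells that also held Klra4. Of cells without Klra8, 37 of 51, 37 of 52 and 25 of 50 held Klra4 in these libraries. Among cells thinned to 1000 UMIs, Klra4 was seen in 57.1% (24 of 42) of those with Klra8 and 18.6% (13 of 70) of those without in BL/6 at 12 months. In BL/6 at 20 months these were 12 of 14 and 35 of 63. The number of Klra8 cells in the SM/J libraries, 8 and 5 after thinning, is too small for a comparison.

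**Figure D2:**
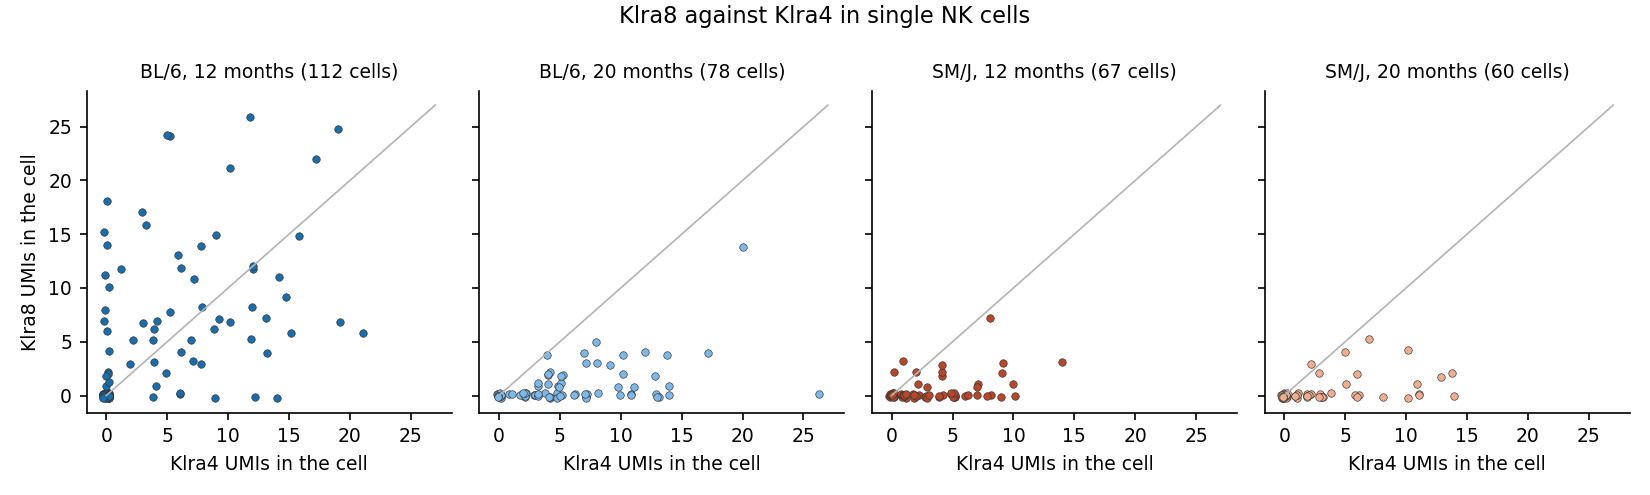
Klra8 UMIs against Klra4 UMIs in each gated NK cell, 1 panel a library, points moved by up to 0.25 UMI so that they do not cover each other; the line marks equal counts. Cells with more Klra8 than Klra4 number 35 in BL/6 at 12 months and 0, 2 and 1 in the other libraries.

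Klra3 and Klra9 encode the inhibitory receptors Ly49C and Ly49I. Klra3 held 295 CPM in BL/6 at 12 months and 37.8, 31.5 and 33.5 in BL/6 at 20 months, SM/J at 12 months and SM/J at 20 months. Klra9 held 330, 116, 85.4 and 30.5. Both were highest in BL/6 at 12 months, where the lowest aliquot had 251 of Klra3 and 282 of Klra9, above the highest of any other library, 61.1 and 159. In BL/6 at 20 over 12 months the ratio was -2.93 (-3.83 to -2.21) for Klra3 and -1.50 (-2.0 to -1.04) for Klra9. For SM/J over BL/6 at 12 months, which leaves the BL/6 20-month library out, it was -3.19 (-4.57 to -2.16) and -1.94 (-2.71 to -1.27). Over the SM/J ages Klra9 gave -1.46 (-2.75 to -0.31) on 19 and 10 UMIs, and Klra3 had 7 and 11 UMIs, too few for a call. The UMIs of these genes cannot be fully separated by sequence, and in BL/6 at 12 months 27 of 51 cells with Klra9 held no Klra3.

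Klra1 encodes the inhibitory receptor Ly49A and went the other way. It held 119 CPM in BL/6 at 12 months, 325 in BL/6 at 20 months, 292 in SM/J at 12 months and 259 in SM/J at 20 months. The aliquots of BL/6 at 12 months, 66.5 to 148, lay below all others, 230 to 425. The log2 ratio of 20 over 12 months was 1.44 (1.02 to 1.87) for BL/6 and -0.17 (-0.66 to 0.32) for SM/J, and SM/J over BL/6 at 12 months gave 1.28 (0.79 to 1.79). Cells with a Klra1 UMI were 18 of 112 in BL/6 at 12 months and 50 of 78, 27 of 67 and 28 of 60 in the others, or 9.82%, 28.6%, 23.1% and 28.3% of cells thinned to 1000 UMIs. The higher level therefore came with more cells holding the transcript.

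Klra7 encodes the inhibitory receptor Ly49G. Its level was 344 CPM in BL/6 at 12 months, 368 in BL/6 at 20 months, 625 in SM/J at 12 months and 433 in SM/J at 20 months. Its ratio of 20 over 12 months was 0.10 (-0.22 to 0.40) for BL/6 and -0.53 (-0.88 to -0.18) for SM/J, and SM/J over BL/6 was 0.86 at 12 months and 0.23 at 20 months. In BL/6 the aliquots of the ages overlapped, 239 to 428 and 331 to 417. Klra7 was the only abundant member whose level in BL/6 at 20 months lay closer to BL/6 at 12 months than to SM/J at 12 months.

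The remaining members were rare in NK cells. Klra5, which encodes the inhibitory Ly49E, held 14.1, 32.8, 35.9 and 39.6 CPM in the order above, from 8 to 13 UMIs a library, and its ratio of 1.16 in BL/6 passed 2-fold with an interval that included 0 (-0.13 to 2.62). Leaving out single aliquots moved it from 0.82 to 2.07, so the call does not hold without single aliquots. Klra6, which encodes the inhibitory Ly49F, had 14 UMIs in BL/6 at 12 months, spread over all 3 aliquots, and 0, 1 and 0 in the other libraries. With 3 counts in place of its 0 UMIs, it was 2.91-fold lower in BL/6 at 20 months than at 12 months. The interval of this log2 ratio reached up to -1.05, and its UMIs were under the 20 needed for a call. Klra10 had 5, 10, 4 and 4 UMIs. Klra2 had 10, 11, 0 and 3 in NK cells, with 6 of the 10 and 6 of the 11 in a single cell each. Klra17, another Ly49 gene outside the list, had 0, 5, 9 and 5.

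In all, 8 members had enough NK UMIs for the comparison of BL/6 over its ages. Of these, 2 were 2-fold or more higher (Klra1 and Klra5) and 3 lower (Klra3, Klra8 and Klra9) at 20 months, against 9.42% of 6188 genes called either way. The median log2 ratio was 0.40 for the members and 0.03 for all genes. Of 6 members in SM/J over its ages, 0 were higher and 1 lower (Klra9), against 11.2% of 4196 genes, with medians of -0.69 and -0.07. For SM/J over BL/6 at 12 months 1 of 6 was higher (Klra1) and 3 lower (Klra3, Klra8 and Klra9), against 13.9% of 5597 genes, with a median of -0.68 for the members. At 20 months 0 of 7 were higher and 3 lower (Klra4, Klra8 and Klra9), against 16.4% of 5143 genes, with medians of -0.33 and -0.13. Among cells with more NK than B cell or monocyte UMIs, and likewise with a mitochondrial limit of 5%, 1 member was 2-fold or more lower in SM/J at 20 months, Klra9. The shares of all genes under these 2 settings are not given, and the 16.4% belongs to the main gate. With 50 or more UMIs required, the shares of all genes fell to 4.66%, 5.56%, 8.26% and 12.3% in the same order, and 4 of 6, 0 of 4, 4 of 6 and 3 of 5 members were past 2-fold. With 20 or more UMIs, the members past 2-fold were 5 of 8 and 4 of 6 in the comparisons of BL/6 over age and of the strains at 12 months, above the background, and 1 of 6 in SM/J over its ages, near it. TMM scaling moved the median of all NK genes by -0.07, 0.15, -0.12 and 0.11 in the same order, and under it every called member kept its direction, while Klra4 between the strains at 20 months moved to -0.89 and Klra9 in SM/J to -1.31.

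Other receptor genes around the cluster followed the same division of libraries in part. Klrb1b, a C-type lectin receptor gene, held 206 CPM in BL/6 at 12 months and 15.1, 13.5 and 12.2 in BL/6 at 20 months, SM/J at 12 months and SM/J at 20 months. Klrb1c, which encodes the NK1.1 antigen, held 547, 141, 126 and 94.5. Klrc1, which encodes the inhibitory NKG2A chain, held 174, 40.3, 44.9 and 39.6, and Styk1, 0.967 Mb beyond Klra1, held 226, 90.7, 67.4 and 76.2. These lay low in 3 libraries, with BL/6 at 20 months beside SM/J. Klri2 did not: it held 313 in BL/6 at 12 months and 95.7 in BL/6 at 20 months but 4.49 and 0 in SM/J, so the library of BL/6 at 20 months lay apart from both. Klrd1, the partner chain of NKG2 receptors, held 670, 683, 701 and 399, and Klrk1, which encodes NKG2D, 654, 491, 692 and 485. Of the 15 NK complex receptor genes found in the files, 13 could be compared in BL/6 over its ages, with 0 higher and 5 lower at 2-fold (Klrb1b, Klrc1, Klrb1c and Klrc2 by size, and Klri2), a median of -0.41, against 9.42% of all NK genes called. Between the strains at 12 months 1 of 13 was higher in SM/J and 5 lower, against 13.9% of all genes, and at 20 months 0 of 12 were higher and 1 lower (Klri2), against 16.4%. The higher one was Klrc3, with 23.6 CPM in BL/6 and 112 in SM/J (log2 ratio 2.21), which was also the 1 of 11 called over the SM/J ages (-1.19), near the 11.2% of all genes.

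**Figure D3:**
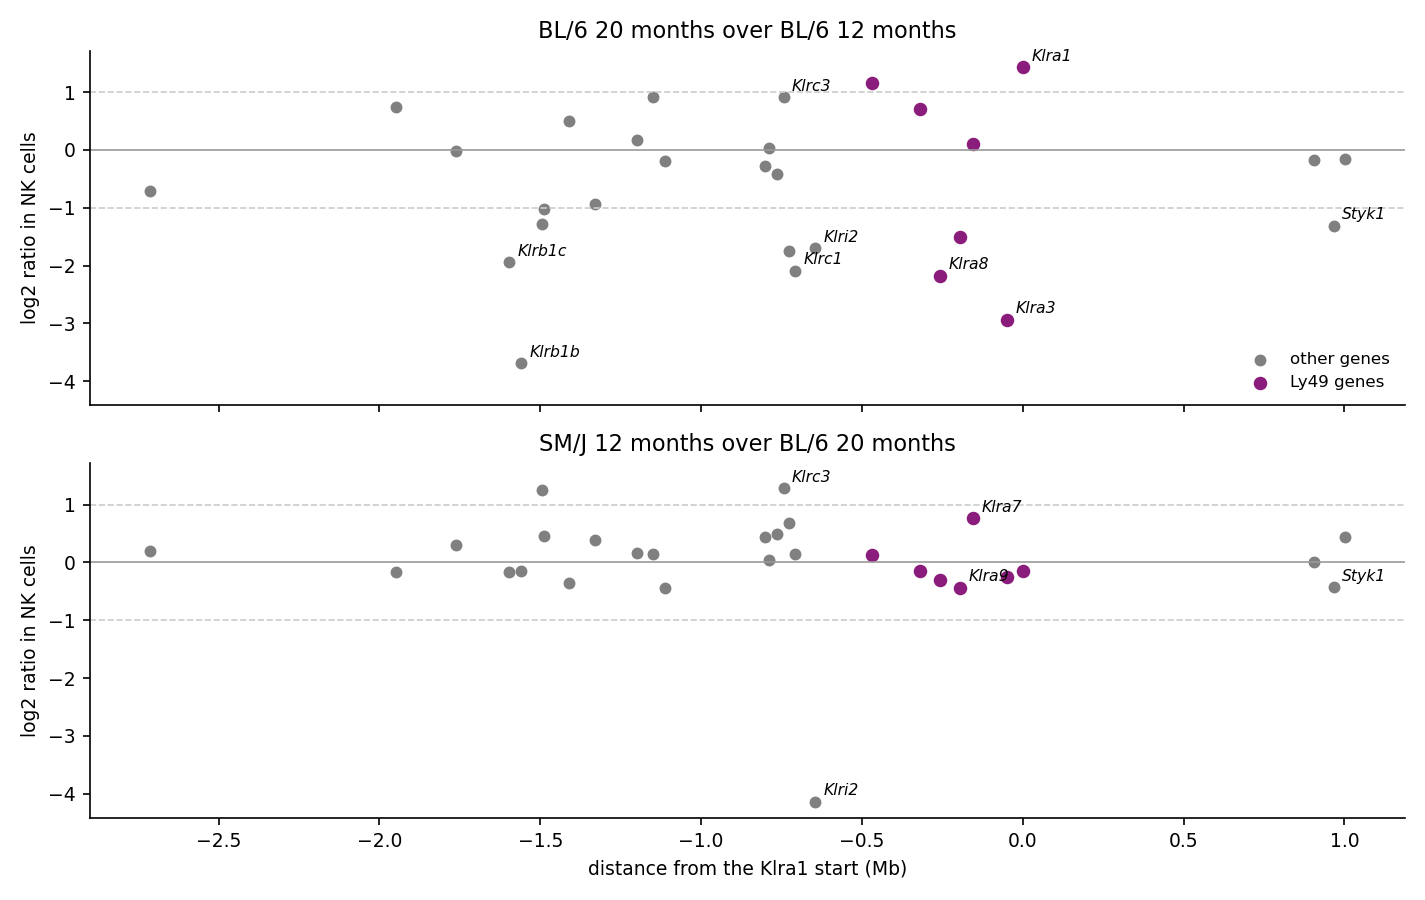
Log2 ratio in NK cells of each gene with 40 or more UMIs within 3 Mb of the Klra1 start, plotted by distance from it in Mb, for BL/6 at 20 over 12 months (top) and SM/J at 12 months over BL/6 at 20 months (bottom). Purple points are Ly49 genes, grey points other genes and dashed lines 2-fold. In the lower panel no Ly49 gene passes 2-fold and Klri2 lies at -4.14.

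The genes past 2-fold in the other lists are given with the share of all genes called. Of 11 MHC class I genes, the ligands and their peptide loading, 0 passed 2-fold in BL/6 over its ages (median -0.47), where 9.42% of all genes did. SM/J was lower at 12 months in H2-Q7 (816 to 238 CPM, log2 ratio -1.77) and Tap1 (-2.11, on 39 and 3 UMIs), where 13.9% of all genes were called. At 20 months H2-Q7 was not past 2-fold (-0.84), and H2-M3 was higher in SM/J (1.09) with an interval that included 0. Of 12 adaptor and signalling genes, 0 passed 2-fold in BL/6 or SM/J over age or between the strains at 12 months. Of all genes 9.42%, 11.2% and 13.9% did in that order. At 20 months 3 were lower in SM/J, Tyrobp, Lcp2 (-1.49) and Fyn (-1.04), where 16.4% of all genes were called. Of 15 regulators and effectors, Gata3 (-1.53) and Tcf7 (-1.10) were lower and Cd27 higher (1.06, with an interval that included 0) in BL/6 at 20 months. There 9.42% of all genes were called. Eomes, a transcription factor of NK maturation, was lower in SM/J at 20 than at 12 months (-1.49, -2.48 to -0.60). Gzmb, a granule protease, was lower in SM/J than in BL/6 at both ages (-1.29 and -1.92). Of this list 0 were higher and 1 of 11 lower in SM/J over its ages, and 0 higher with 3 of 14 and 5 of 13 lower between the strains at 12 and 20 months, beside the shares of all genes given above. At 20 months the gated NK cells held 2706 CPM of monocyte genes in BL/6 and 2101 of B cell genes in SM/J. Their part in these lists was not tested, and values in stricter cells are not given for them.

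T cells held less Ly49 RNA, and its makeup also differed between libraries. The 10 genes together held 122 CPM in T cells of BL/6 at 12 months, 76.1 in BL/6 at 20 months, 43.5 in SM/J at 12 months and 81.8 in SM/J at 20 months. The log2 ratio of 20 over 12 months was -0.67 in BL/6 and 0.90 in SM/J. In T cells without a UMI of Ncr1 or Klre1 the levels were 41.0, 46.3, 23.1 and 63.6, so the BL/6 library at 20 months was no longer the lower one there, while SM/J at 20 months remained above 12 months. A single cell gave 24 of the 68 UMIs in SM/J at 12 months, and without it the level was 28.3. T cells with Cd8a or Cd8b1 and no Cd4 held 160, 131, 43.8 and 149, and those with Cd4 alone 17.0, 5.49, 0 and 3.49, so the level was higher in CD8 than in CD4 cells. The CD8 cells gave 190 of 274, 134 of 197, 32 of 68 and 49 of 74 T cell UMIs in the order above. Klra6 held 11.1, 8.89, 2.56 and 9.94 CPM in T cells beside 22, 0, 4.49 and 0 in NK cells. These levels came from 25, 23, 4 and 9 UMIs in T cells and 14, 0, 1 and 0 in NK cells, too few to order the classes. Of 7 members with enough T cell UMIs in BL/6 over its ages, 1 was 2-fold or more higher and 4 lower at 20 months, against 4.85% of 9570 genes. These were Klra4 (3.35) and Klra3, Klra5, Klra7 and Klra9. Klra7 gave -2.50 in T cells beside 0.10 in NK cells, and Klra5 -1.14 beside 1.16, and the difference between the classes was not tested. In SM/J both members tested, Klra1 and Klra4, were higher, against 4.92% of 7963 genes. Between the strains, 1 of 7 was higher and 4 lower in SM/J at 12 months, against 10.6% of 9143 genes, and 0 of 3 passed 2-fold at 20 months, against 8.93% of 8851 genes.

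Among the CD8 T cells, Klra4 was at 0.842 CPM in BL/6 at 12 months, from 1 UMI in 198 cells, and at 39.2, 12.3 and 73.0 in BL/6 at 20 months, SM/J at 12 months and SM/J at 20 months. Klra3 held 39.6 in BL/6 at 12 months and 0.981, 0 and 0 in the others, Klra9 28.6 and then 0, 0 and 0, and Klra7 38.7 and then 2.94, 1.37 and 3.04. The inhibitory members Klra3, Klra7 and Klra9 were thus high in the CD8 cells of a single library, in all 3 of its aliquots (22.6 or more, against at most 8.20 in any other), and the activating Klra4 in the other libraries. T cells with Ncr1 or Klre1 were also more frequent in that library: 77 of its 198 CD8 cells held such a UMI, against 20 of 117, 3 of 108 and 8 of 55. Without them Klra3 held 18.9, 1.21, 0 and 0 CPM in the order above, Klra7 16.2, 1.21, 1.40 and 0, and Klra9 8.10, 0, 0 and 0. Klra4 then held 0, 36.2, 12.6 and 82.7, and the sum of the 10 genes 60.8, 113, 44.9 and 162. Klra3, Klra7 and Klra9 were still highest and Klra4 still lowest in BL/6 at 12 months, while the sum there was below that of both 20-month libraries. With all CD8 cells, and with 3 counts in place of its 0 UMIs at 20 months, Klra9 was 9.73-fold lower in BL/6 at 20 than at 12 months. Klra1 was higher at 20 months in each strain. In BL/6 it held 20.2 and 73.5 (log2 ratio 1.81, 1.18 to 2.59), with 11 of the 24 UMIs at 12 months in a single cell. In SM/J it held 21.9 and 51.7 (1.2, 0.17 to 2.32). Klra4 in SM/J gave 2.47 (1.41 to 3.86), and this comparison does not rest on the BL/6 20-month library. Klra8 had 0 UMIs in CD8 T cells of every library, although it was abundant in NK cells of BL/6 at 12 months.

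The count of members past 2-fold in CD8 T cells was 2 higher and 3 lower of 6 tested in BL/6 over its ages, against 9.1% of 7715 genes, and 2 higher of 2 tested in SM/J (Klra1 and Klra4), against 7.21% of 5421 genes. Between the strains, 4 of 5 were lower in SM/J at 12 months (Klra3, Klra6, Klra7 and Klra9), against 14.1% of 7459 genes, and 0 of 3 passed 2-fold at 20 months, against 13.4% of 6123 genes. The CD8 cells were deeper at 20 months in BL/6 (a median of 8483 against 5235 UMIs), and shares of cells with a UMI move with that. Klra1 was seen in 46 of 117 CD8 cells at 20 months and 7 of 198 at 12 months in BL/6, or 5.98% and 1.01% at 1000 UMIs. In B cells of BL/6, at median depths of 3497 and 3688.5 UMIs, Klra1 was seen in 0.104% and 0.689%, and in 0% and 0.371% after thinning.

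**Figure D4:**
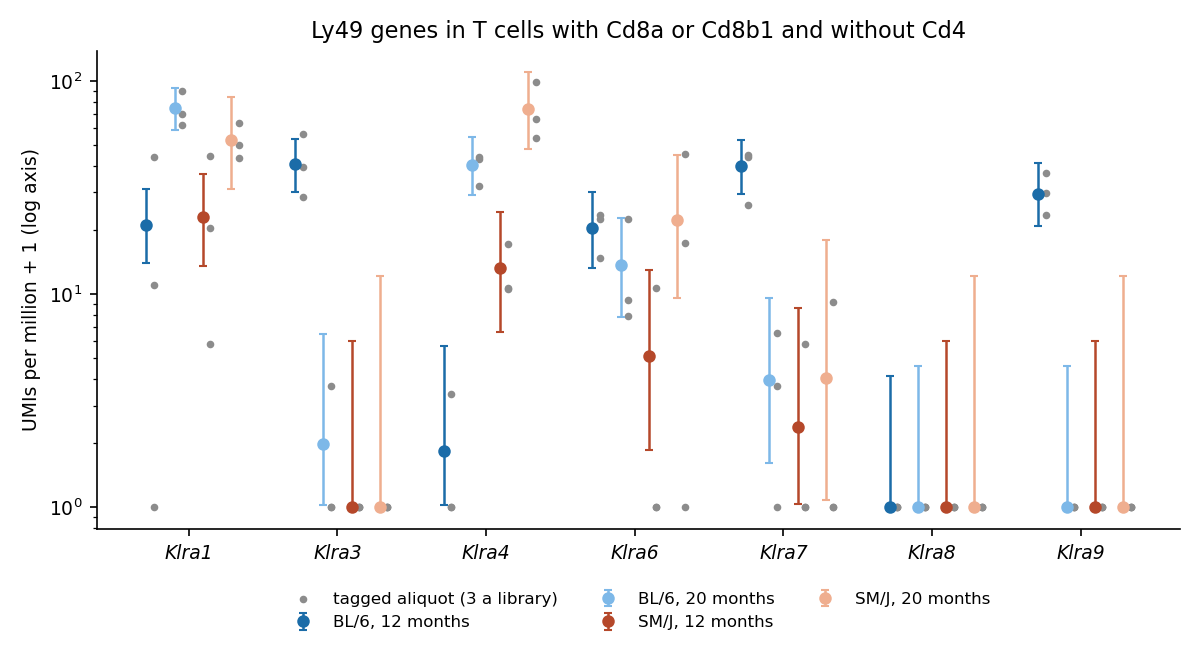
CPM + 1 (log axis) of 7 Ly49 genes in T cells with Cd8a or Cd8b1 and no Cd4, by library with exact Poisson 95% intervals; grey points are the tagged aliquots. Klra3, Klra7 and Klra9 stand high in BL/6 at 12 months alone, and Klra4 is lowest there.

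Klra2 encodes Ly49B, an inhibitory member known from myeloid cells. In monocytes it held 442 CPM in BL/6 at 12 months, 182 in BL/6 at 20 months, 295 in SM/J at 12 months and 321 in SM/J at 20 months. The aliquots lay close together, 424 to 473, 177 to 186, 278 to 312 and 313 to 326 in that order, and no aliquot of 1 library overlapped with another. The highest of SM/J at 12 months, 311.8, lay next to the lowest of SM/J at 20 months, 312.9. The log2 ratio of 20 over 12 months was -1.27 (-1.37 to -1.18) for BL/6 and 0.12 (-0.043 to 0.29) for SM/J, and SM/J over BL/6 was -0.58 at 12 months and 0.81 at 20 months. Klra2 was past 2-fold in BL/6 over its ages, where 4.04% of 10970 monocyte genes were. It was not in SM/J over its ages (4.72% of genes were), nor between the strains at 12 months (9.25%) or 20 months (8.64%). For the other 9 members together the monocyte level was 0.786 to 1.87 CPM.

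Klra2 was lower in BL/6 at 20 months in each myeloid class. In classical monocytes, the Ly6C-high cells that enter tissue, it held 471, 175, 356 and 287 CPM in the order above, with a BL/6 ratio of -1.42 (background 5.57% of 9730 genes). In nonclassical monocytes, which patrol vessels, it held 414, 187, 278 and 348, with a ratio of -1.14 (4.13% of 9651 genes). In SM/J the 2 classes went in opposite directions over age, -0.31 and 0.32. In cells with Prg4 and Alox15, genes of peritoneal macrophages, it held 194, 87.9, 97.6 and 90.2, with a BL/6 ratio of -1.14 (8.34% of 6712 genes). In BL/6 at 20 months Klra2 lay below both SM/J libraries in monocytes, while in the macrophage gate it lay with them (SM/J over BL/6 at 20 months 0.036, -0.34 to 0.43). At 1000 UMIs per cell, 33.2%, 17.9%, 25.1% and 27.2% of monocytes had a Klra2 UMI, and 0% to 0.335% of B cells.

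**Figure D5:**
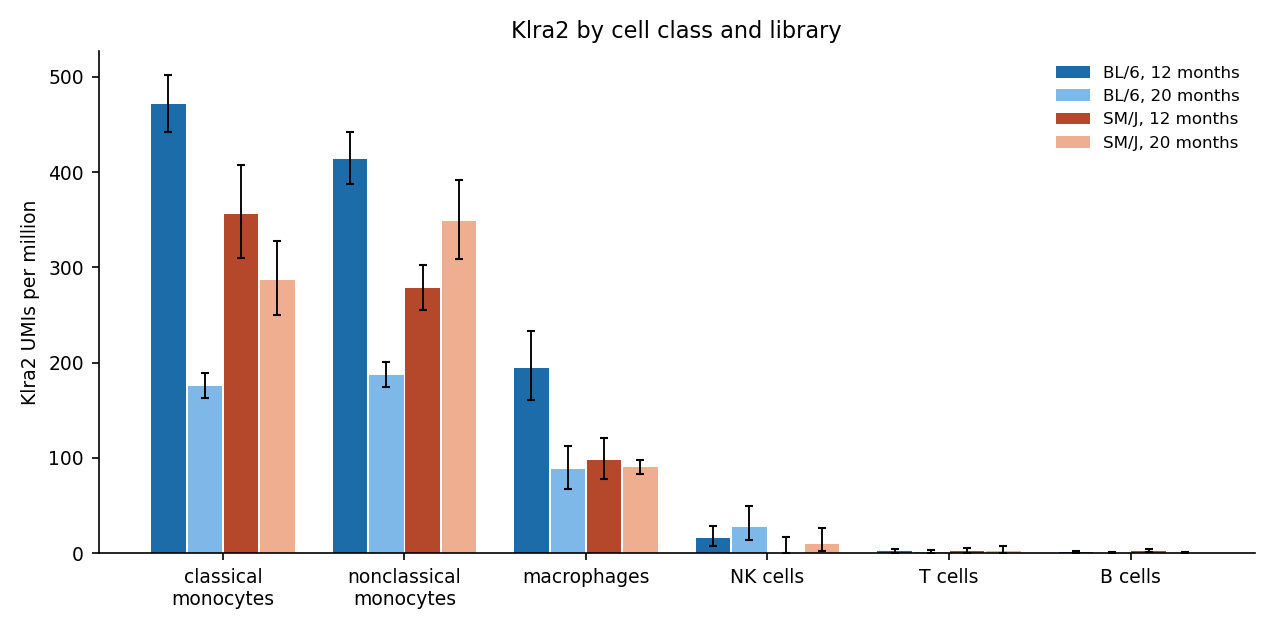
Klra2 CPM by cell class and library, with exact Poisson 95% intervals for counting error. The BL/6 20-month bar is the lowest of the 4 in both monocyte classes, and T cells and B cells lie near 0.

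Across the 4 libraries and 4 classes (NK cells, T cells, monocytes and B cells, 16 points that share libraries and depth), the genes most like the sum of the 10 members were Padi2 (r = 0.98), Prex1 (0.96), Rap2b (0.96), Smad3 (0.95) and Aplp2 (0.95), among 11972 genes. That sum mixes NK cells with monocytes through Klra2. For the 9 members without it they were Klrg1 (0.99), Stk32c (0.98), Sytl3 (0.98), Clnk (0.98) and Xcl1 (0.98). Klrg1 encodes another inhibitory receptor of mature NK cells, Clnk an adaptor and Xcl1 a chemokine of NK cells. For Klra2 alone they were Zfyve9 (0.99), Cyp2ab1, Ndel1 and Cd302 (0.98 each) and Apoc2 (0.98). Cd302 encodes a lectin receptor of myeloid cells and Apoc2 an apolipoprotein.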

How the data were processed

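Blood mononuclear cells of both strains and ages were read from 4 deposited matrices. Per the file headers, the authors' raw UMI counts per gene and cell came from Cell Ranger 7.0.1, and per the submitters' processing notes the build was mm10 and Seurat 4.3.0 was used. For read length and aligner settings, nothing is given in the sources used here. Cells with 500 or more UMIs, 200 or more genes and at most 10% mitochondrial UMIs were kept, and 125 doublets called by Scrublet (scanpy 1.11.5) in each 10x sample were left out, which kept 11596 of 12299 deposited cells. No deposited column of values stayed unmapped.

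Cells were gated by marker UMIs and not clustered. NK cells held a UMI of Ncr1 or Klre1 and none of Cd3e. T cells held Cd3e and more T cell than B cell or monocyte UMIs. Monocytes held 5 or more UMIs of a set of monocyte markers with Csf1r among them, over 3 times the B cell UMIs, and none of Prg4 or Alox15. Macrophages held 2 or more UMIs of Prg4 and Alox15, and B cells 5 or more of a set of B cell markers. The full marker sets are not reported here. Counts were summed over the cells of a class and library and divided by the class total (CPM). Ratios are log2 of CPM + 1, with a conditional binomial 95% interval. Levels carry exact Poisson 95% intervals and shares of cells exact Clopper-Pearson ones. These cover counting error only. With 1 library at each strain and age no test was possible and no p-value is given. A gene was called at 2-fold or more with 20 or more UMIs over both libraries. TMM factors came from edgeR 4.0.16 (R 4.3.3) as an alternative scaling. Ratios, intervals and calls were tested on simulated data.

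The members, gates and gene lists were chosen with earlier results of these data known. All 10 members are given. From each list at most 4 genes past 2-fold in a comparison are named by size (Klri2 and Klrc3 were added after their values were seen), and for likeness the 5 genes with the highest Pearson r. Comparisons with the library of BL/6 at 20 months as its own reference, the neighbouring genes on chromosome 6, the sum of 9 members, CD8 T cells without Ncr1 or Klre1, member counts at 50 UMIs and the words marked in sequences were chosen after seeing the data. Protein identity was planned but not run here, and transcripts (GENCODE vM21, GRCm38, the build of mm10) were compared in its place with Biopython 1.88. Promoter stretches are from RefSeq (GRCm38.p6), where all 10 members matched by symbol. Alternatives covered gates, the mitochondrial limit, doublets, scaling, pseudocount, thinning and left-out aliquots.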

Additional observations from a re-analysis of the deposited data

Results flagged for a closer look

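In NK cells Klra4 (Ly49D) differed over age in opposite directions in the strains. Its log2 ratio of 20 over 12 months was 0.71 in BL/6 and -0.86 in SM/J, and neither reached 2-fold. Every aliquot at 20 months lay above those at 12 months in BL/6 and below them in SM/J. With single aliquots left out the SM/J ratio of Klra4 ranged from -1.19 to -0.58. It was smaller in size among cells with more NK than B cell or monocyte UMIs. The summed Ly49 level of T cells gave -0.67 in BL/6 and 0.90 in SM/J. In T cells without Ncr1 or Klre1 the BL/6 levels were 41.0 and 46.3 CPM, which turns the BL/6 direction, and a single cell held 24 of the 68 UMIs of SM/J at 12 months. With 1 library at each strain and age, neither difference between the strains was tested, and the BL/6 side of both rests on the library of BL/6 at 20 months.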

How the results depend on the processing

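Of 742 alternative values, 665 moved by less than the spread over aliquots or their counting interval, 77 moved further, and 0 called values changed sign. No paired analysis was possible because each strain and age is 1 library and no result comes from a test. Depth limits Klra2, Klra5, Klra6 and Klra10 in NK cells.

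The cause of the following shifts was not tested. For the summed NK level, requiring Klre1 gave log2 ratios of -0.038 for the strains at 12 months and -0.36 at 20 months. Requiring 2 UMIs of Ncr1 and Klre1 gave -0.043 for BL/6 and -0.32 for SM/J over age, and -0.38 for the strains at 20 months. More NK than B cell or monocyte UMIs gave -0.082 and -0.20 over age, and -0.033 and -0.15 between the strains. A mitochondrial limit of 5% gave -0.28 for SM/J over age and -0.11 for the strains at 20 months, and a mean over cells -0.26 and -0.33. Members past 2-fold between the strains at 20 months fell from 3 to 1 with Klre1, with 2 UMIs, with more NK UMIs and at 5%. The shares of all genes under these settings are not given, so the fall cannot be set against them. The 16.4% above belongs to the main gate.

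The share of NK cells with a Ly49 UMI became 80.9% in BL/6 at 12 months when Ncr1 was required. With 2 UMIs it was 80.6% and 86.4% in BL/6 at 12 and 20 months and 82% in SM/J at 20 months. With more NK UMIs it was 85.1% in BL/6 at 20 months, and 85.7% and 84% in SM/J. Thinned to 500 UMIs it was 53.6% for BL/6 at 12 months and 53.3% for SM/J at 20 months, and without thinning 81.2% and 88.5% in BL/6. At the 5% limit NK cells were 4.75%, 3.89% and 4.07% of cells in BL/6 at 12 months, SM/J at 12 months and SM/J at 20 months, and the T cell sum was 107 CPM for the BL/6 and 24.5 for the SM/J library at 12 months. T cells without Ncr1 or Klre1 held 41.0, 46.3, 23.1 and 63.6 CPM.

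For Klra2, TMM scaling gave -0.75 and 0.66 between the strains, classical monocytes -1.42 and -0.31 over age in BL/6 and SM/J and -0.40 between the strains at 12 months, and nonclassical monocytes -1.14 and 0.32 over age. With 50 or more UMIs, 4.66%, 5.56%, 8.26% and 12.3% of NK genes passed 2-fold.

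Leaving out single aliquots gave a summed NK ratio of -0.35 to -0.22 for BL/6 and -0.84 to -0.44 for SM/J over age, and of -0.33 to -0.086 and -0.83 to -0.43 between the strains at 12 and 20 months. The shares with a Ly49 UMI ranged from 71.2% to 74.6%, 72.5% to 77.3%, 69.0% to 82.5% and 67.6% to 72.7%. Klra5 over age in SM/J ranged from -5.21 to 5.34.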
